A study of Mus musculus with 11 samples.

Results

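The proteasome genes of the whole testis were compared over 4 genotypes that combine loss of the DNA methyltransferase gene Dnmt3C with germline deletion of Nrf1. The set holds every gene whose symbol begins with Psma, Psmb, Psmc, Psmd, Psme, Psmf or Psmg and is not a numbered pseudogene (-ps). It has 50 of the 33188 genes in the count tables. Its members are 14 constitutive ring subunits of the 20S core, 17 constitutive subunits of the 19S cap, the germline ring subunit Psma8, 3 induced catalytic subunits (Psmb8, Psmb9 and Psmb10), the thymus subunit Psmb11, 7 assembly chaperones, 4 activators, the inhibitor Psmf1 and 2 genes that share only the name. Those 2 are Psmc3ip, which encodes a meiotic recombination partner of DMC1, and Psme2b, a copy of Psme2.

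The proteasome is the protease that destroys proteins tagged with ubiquitin. Its 20S core stacks alpha and beta rings around a chamber with the cutting sites, and the 19S cap binds, unfolds and feeds in the substrate. Nuclear respiratory factor 1, encoded by Nrf1 and deleted here, binds GC-rich promoters and is sensitive to DNA methylation. A different factor encoded by Nfe2l1 is also called NRF1, and it raises transcription of most proteasome genes when proteasome activity is too low. The comparison therefore asked whether genes known as targets of the factor that shares the name differed when Nrf1 itself was deleted.

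Polyadenylated RNA was sequenced from whole testes of C57Bl6/J mice at postnatal day 5, when the germ cells are spermatogonia. The groups were wild type (WT, 2 libraries), Dnmt3C KO/KO (Dnmt3C KO, 3 libraries), Nrf1 fl/KO with Ddx4-Cre (Nrf1 cKO, 3 libraries) and both mutations together (dKO, 3 libraries). The labels give the Nrf1 cKO as Nrf1KO/KO and call the material germ cells in the sample titles, whereas their tissue and cell type entries name testes with germ cells and somatic cells. Ddx4-Cre acts in germ cells. By the genotype given, the somatic cells of the Nrf1 cKO and dKO testes keep the floxed Nrf1 allele beside a KO allele. Littermates served as controls where possible. Levels are given as CPM, counts scaled to the size of the library. The mutant and WT levels of Nrf1 (WT 57.0 and 58.0, Nrf1 cKO 56.1, 52.2 and 57.9, dKO 56.8, 60.8 and 60.8 CPM) overlapped and do not check the labels. Those of Dnmt3c (WT 4.16 and 4.87, Dnmt3C KO 3.02, 3.84 and 4.51, dKO 4.28, 4.94 and 3.55 CPM) overlapped too and do not check them either. The libraries held 26063590 to 39365841 counts, of which the proteasome genes took 0.479% to 0.607%. No marker gene of the germ cell or somatic cell lists was at 0 in all libraries, with summed Sertoli marker levels of 7109 to 11521 CPM and summed germ cell marker levels of 218 to 955 CPM. The study calls the samples biological replicates, and the labels name no animals.

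Of the 50 genes, 49 passed the filter on low counts. The 50th was Psmb11, the catalytic subunit of the thymus, with 0 to 8 counts per library, and it was listed at 0 in WT replicate 1 and Nrf1 cKO replicate 2. Levels of the other genes were compared per kilobase of annotated exon, as CPM per kb averaged over the 11 libraries. Among the alpha ring genes, which form the gate of the core, Psma3 was lowest at 36.9 CPM per kb and Psma6 highest at 107 CPM per kb. Among the beta ring genes, which include the cutting subunits, Psmb1 was lowest at 47.7 CPM per kb and Psmb2 highest at 114 CPM per kb. The 6 ATPases that unfold substrate ranged from 28.9 CPM per kb for Psmc2 to 92.5 CPM per kb for Psmc3.

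The other cap subunits and the regulators were spread more widely. The 11 non-ATPase cap subunits ran from 15.2 CPM per kb for Psmd11 to 74.8 CPM per kb for Psmd2, the scaffold at the base of the cap. The assembly chaperones were all below the lowest of the 14 ring genes. The chaperones of the cap ran from 7.43 CPM per kb for Psmd9 to 16.5 CPM per kb for Psmd10, and those of the core from 4.49 CPM per kb for Psmg3 to 26.0 CPM per kb for Psmg1. Among the activators, Psme4 (PA200) had 8.62 CPM per kb and Psme1 (PA28 alpha) had 65.4 CPM per kb. The inhibitor Psmf1 (PI31) had 6.87 CPM per kb. Psma8, the alpha subunit of the spermatoproteasome, had 1.63 CPM per kb, and the induced subunits had 1.06 CPM per kb for Psmb9, 1.71 CPM per kb for Psmb8 and 12.2 CPM per kb for Psmb10.

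Short stretches of promoter are shown for the 7 genes that hold the binding letters of the deleted factor, so that their letters can be read beside their values. RefSeq promoter windows of 300 bases, from 250 bases before to 50 bases after the start, were matched by symbol for 42 of the 50 genes (45 windows, GRCm38.p6). The letters GCGCA, any base and GCGC, in a row, were searched on both strands. They were in 7 of the 45 windows (15.6%) and in 1512 of all 32851 windows (4.60%). The form with T as the free base, which is a palindrome and so reads alike on both strands, was in 2 of the 45 windows and in 0.971% of all windows. Capitals mark the match, and each stretch is given 5′ to 3′ on the strand of its gene. In Psmc5 and Psmd14 the match is on the opposite strand, so the capitals show its reverse complement. A match is a description of letters, not a site or a cause.
Psma2, chr13:14613105-14613134, plus strand: ggcccctcttGCGCATGCGCaagggtcaaa
Psma3, chr12:70974535-70974564, plus strand: tatggtttctGCGCACGCGCgctctctgct
Psma4, chr9:54950788-54950817, plus strand: tcgcagtcctGCGCACGCGCgggagccata
Psmc4, chr7:28050242-28050271, minus strand: aagagttactGCGCACGCGCaacatccttg
Psmc5, chr11:106256126-106256155, plus strand: tttcgcctccGCGCCTGCGCgatagagtga
Psmd14, chr2:61711604-61711633, plus strand: caggcggcctGCGCGTGCGCtgtgtgctcc
Psmg1, chr16:95990911-95990937, minus strand: gcgggccggcGCGCATGCGCtgtctgg

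The letters TGACNNNGC, the core of the antioxidant response element read by Nfe2l1 and its relatives, were in 6 of the 45 windows (13.3%) and in 12.4% of all windows. No window of a proteasome gene held both these letters and those of the deleted factor. The genes were Psmb5, Psmb6, Psmc6, Psmd12, Psmd9 and Psme4. The stretches of Psmb5 and Psmb6 are shown because both encode cutting subunits of the constitutive core. The longer form TGACTCAGC, searched after values had been seen, was in 0 of the 45 windows and in 0.454% of all windows, which says only that these letters are not in these windows.
Psmb5, chr14:54618024-54618052, minus strand: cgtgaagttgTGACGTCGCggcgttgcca
Psmb6, chr11:70525338-70525366, plus strand: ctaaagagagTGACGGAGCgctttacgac

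In whole testes with Nrf1 deleted in the germ cells, the constitutive proteasome genes differed little, and no gene of the set passed the test. The 6 libraries with Nrf1 deleted were compared with the 5 libraries with Nrf1 intact, allowing for the Dnmt3C genotype. By edgeR's quasi-likelihood test at an adjusted p below 0.01, 0 of 49 genes were called, as were 0.00443% of the 22594 genes and transposon subfamilies tested, and DESeq2 also called 0. At an unadjusted p below 0.05, 10 genes were lower and 0 higher, against 7.87% of all features in either direction, 4.32% lower and 3.55% higher. DESeq2 gave 9 genes at that level. The edgeR count was 26 without WT replicate 1 and 2 without WT replicate 2, with set medians of -0.24 and -0.12. The share of all features at that level was not computed for DESeq2 or for fits with a library left out, here or below. Those counts therefore cannot be told from a change over all features. The log2 fold change was below 0 for 45 of the 49 genes, with a median of -0.14 against 0.00 for all features. No gene of the set had non-overlapping libraries between deleted and intact, as 0.451% of all features did in the lower and 0.274% in the higher direction.

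In this comparison the precision was enough to bound most of the genes. The bounds are those of whole testis RNA, which includes somatic cells where Ddx4-Cre does not act, and not of germ cells alone. The 95% interval of the log2 fold change lay inside ±0.5 for 41 of the 49 genes, against 43.5% of all features, and inside ±1 for 46, against 73% of all features. Inside ±0.5 were 23 genes in Nrf1 cKO against WT (11.6% of all features) and 23 in dKO against Dnmt3C KO (36.3%). There were 19 in Dnmt3C KO against WT (27.1%), 27 in dKO against WT (22.6%), 44 for Dnmt3C loss (49.2%) and 5 for the interaction (6.38%). With Nrf1 deletion, Psmd2, which carries ubiquitin receptors and cofactors, was among the cap genes nearest 0, while Psmc1 and Psmd14 stood at -0.18. Psmd2 had 322 and 307 CPM in WT, 281, 330 and 302 CPM in Dnmt3C KO, 328, 269 and 297 CPM in Nrf1 cKO and 273, 307 and 308 CPM in dKO. The 4 genotypes overlapped, and the log2 fold change with Nrf1 deletion was -0.06 (95% interval -0.25 to 0.14). The values just described are those in the plot of fold changes with intervals, where all 11 non-ATPase cap genes lie between -0.18 and 0.10.

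By role, the fitted values stood on the same side of 0 for nearly all structural genes. All 7 alpha ring genes were below 0 in log2, their median being -0.18 and 1 of them, Psma4, at an unadjusted p below 0.05. All 7 beta ring genes were below 0 with a median of -0.17, and Psmb3, a structural ring subunit, was the 1 at that level. The 6 ATPases were all below 0 with a median of -0.11 and none at that level. The 4 chaperones of the core had a median of -0.21, with Psmg1 and Psmg4 at an unadjusted p below 0.05, and the 3 chaperones of the cap had a median of -0.11, with Psmd5 at that level. The activators split, with Psme1 at -0.13 and Psme2 at -0.24, and Psme3 (PA28 gamma) at 0.02 and Psme4 at 0.04. Psmf1 stood at 0.07. In the same fit all 25 germ cell markers were below 0 (median -0.95) and 12 of 14 Sertoli markers above (median 0.35), and their part in the shift of these genes was not tested.

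The 7 genes with the binding letters of the deleted factor ranged from -0.26 to -0.08 in the same comparison. Psma4 had 147 and 192 CPM in WT, 222, 188 and 192 CPM in Dnmt3C KO, 159, 155 and 143 CPM in Nrf1 cKO, and 174, 135 and 167 CPM in dKO. WT replicate 1 lay among the libraries with Nrf1 deleted, and the other 4 intact libraries lay above all of these. Its log2 fold change was -0.26 ± 0.11 (SE), with an adjusted p of 0.589 by edgeR's quasi-likelihood test. Psmg1 had 33.9 and 38.4 CPM in WT, 37.7, 39.9 and 41.2 CPM in Dnmt3C KO, 35.4, 32.1 and 30.2 CPM in Nrf1 cKO, and 35.2, 30.6 and 30.2 CPM in dKO. Its log2 fold change was -0.24 ± 0.09 (SE), with an adjusted p of 0.549 by edgeR's quasi-likelihood test. The remaining genes with these letters were Psma3 at -0.22, Psmd14 at -0.18, Psma2 at -0.15, and Psmc4 and Psmc5 each at -0.08.

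**Figure D1:**
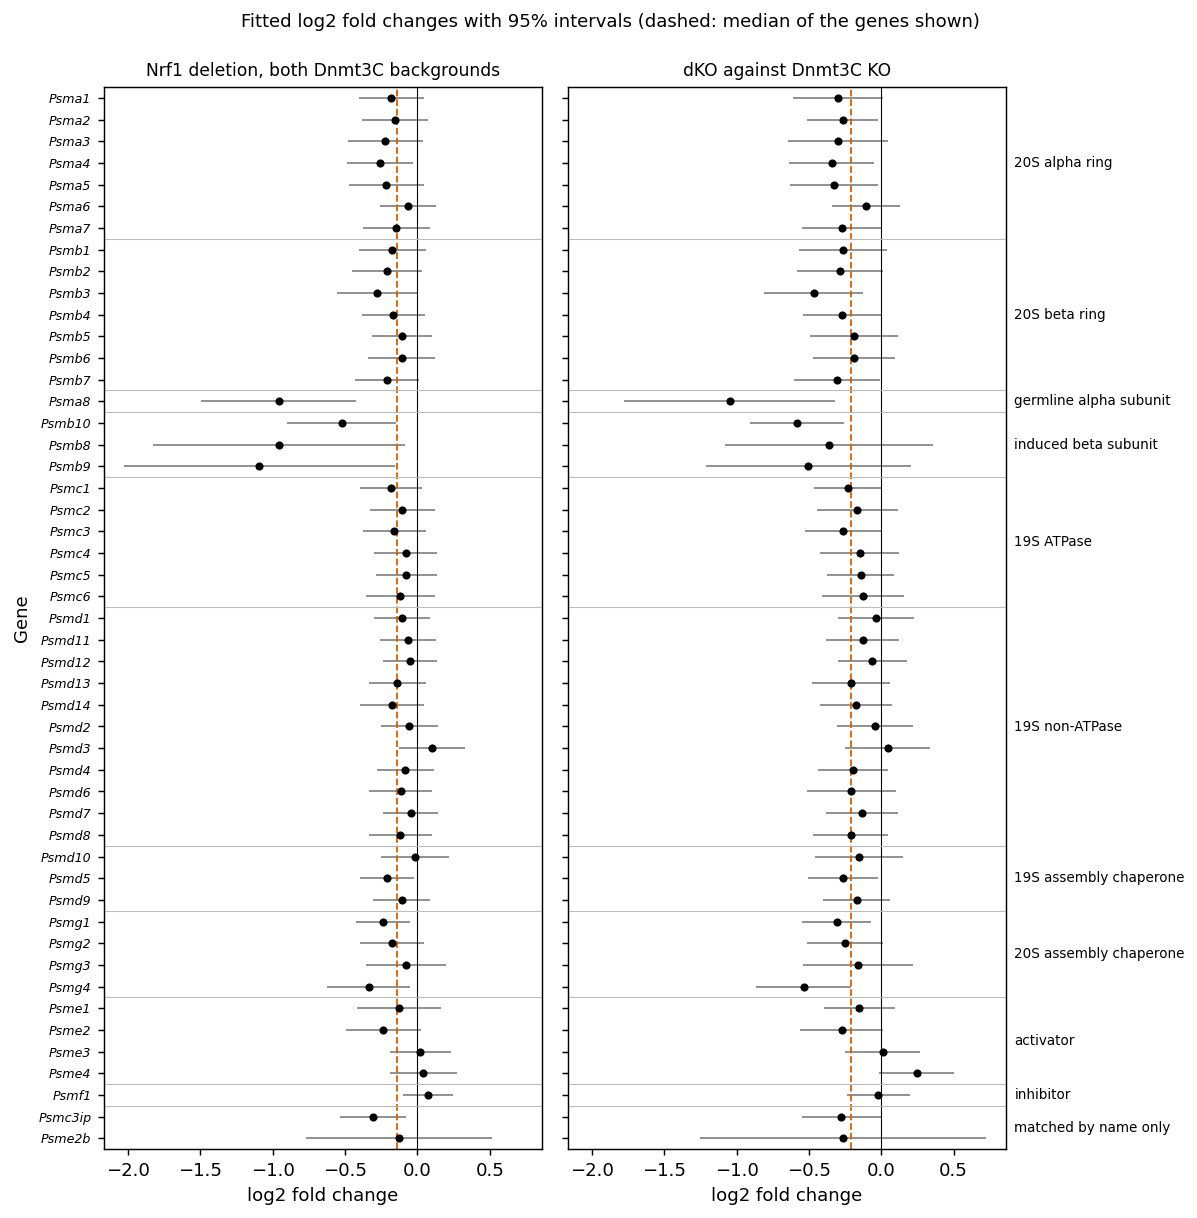
Fitted log2 fold change (x axis) of each of the 49 tested proteasome genes (y axis, grouped by role) for Nrf1 deletion over both Dnmt3C backgrounds (left, 6 against 5 libraries) and for dKO against Dnmt3C KO (right, 3 against 3). Points are estimates, bars 95% intervals and dashed lines the medians, -0.14 on the left and -0.21 on the right; Psma8, Psmb8 and Psmb9 have the widest distance from 0 on the left.

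Psma8 had the smallest p of the set in this comparison. Psma8 replaces Psma7 in germ cell proteasomes and is required in meiosis. It had 3.32 and 5.56 CPM in WT, 8.16, 5.98 and 4.96 CPM in Dnmt3C KO, 3.34, 1.99 and 2.05 CPM in Nrf1 cKO, and 3.54, 3.92 and 1.77 CPM in dKO. The 6 libraries with Nrf1 deleted held 1.77 to 3.92 CPM, and only WT replicate 1 of the intact libraries fell in that range. The log2 fold change was -0.96 ± 0.25 (SE, 95% interval -1.49 to -0.42), with an unadjusted p of 0.00174 and an adjusted p of 0.352 by edgeR's quasi-likelihood test, so the call was not made. Leaving out each library in turn kept the value between -1.09 and -0.81.

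The germ cell markers had fitted values on the same side of 0 as Psma8. All 25 markers, which include Ddx4, Dazl and Sall4, were lower with Nrf1 deleted, by a median log2 fold change of -0.95, and 19 were at an unadjusted p below 0.05, against 4.32% of all features. None of the 25 passed an adjusted p below 0.01 by edgeR's quasi-likelihood test. Their summed level was 682 and 537 CPM in WT, 955, 542 and 627 CPM in Dnmt3C KO, 389, 218 and 265 CPM in Nrf1 cKO, and 567, 487 and 269 CPM in dKO. The sum was lower in every Nrf1 cKO library than in every WT library. In whole testis, fewer germ cells and less RNA per germ cell cannot be told apart, and the part of germ cell content in the Psma8 value was not tested.

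Psmc3ip, which pairs homologous chromosomes with DMC1 and is not a proteasome subunit, had the same order of genotypes as Psma8. It had 19.01 and 26.9 CPM in WT, 24.8, 24.1 and 25.002 CPM in Dnmt3C KO, 18.8, 18.7 and 16.5 CPM in Nrf1 cKO, and 22.7, 19.7 and 18.7 CPM in dKO. Each Nrf1 cKO library was lower than either WT library, and every dKO library below every Dnmt3C KO library. Its log2 fold change with Nrf1 deletion was -0.31 ± 0.11 (SE), with an adjusted p of 0.519 by edgeR's quasi-likelihood test. Psme2b, whose reads cannot be fully told from those of Psme2, had 0.795 to 2.92 CPM and a log2 fold change of -0.13 ± 0.30 (SE).

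**Figure D2:**
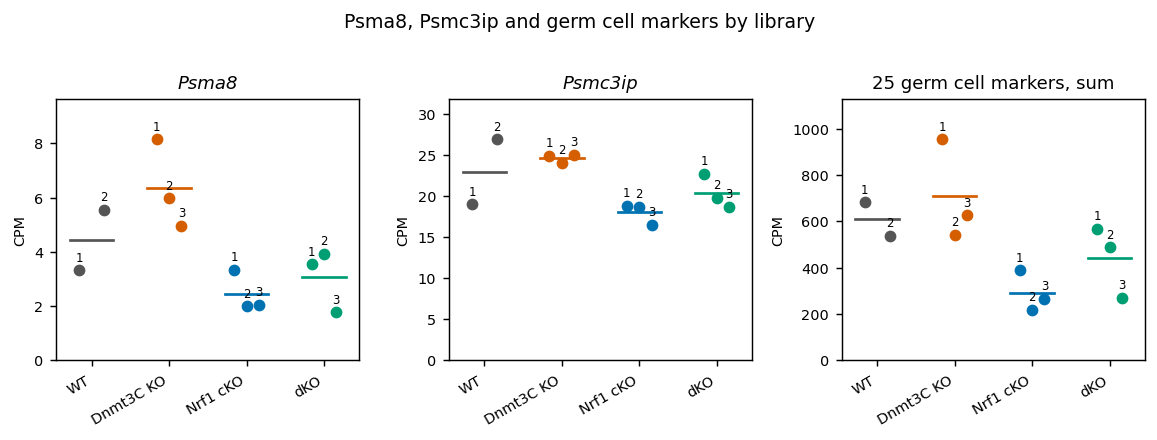
CPM (y axis, from 0) in each library, by genotype (x axis), of Psma8, Psmc3ip and the sum of 25 germ cell markers. Points are libraries, labelled with the replicate number, and lines are genotype means; Psma8 is at 3.34, 1.99 and 2.05 CPM in Nrf1 cKO and the marker sum at 389, 218 and 265 CPM.

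The comparison of dKO with Dnmt3C KO isolates Nrf1 deletion on the Dnmt3C mutant background. In log2 fold change 46 of the 49 genes were below 0, and the median was -0.21 against 0.02 for all 20783 features tested. In 21 genes (42.9% of the 49) every dKO library was lower than every Dnmt3C KO library, which held for 6.9% of all features. No gene of the set was separated in the higher direction, as 6.7% of all features were. At an unadjusted p below 0.05, 13 genes were lower and 0 higher, against 7.18% of all features in either direction, 4.08% lower and 3.1% higher. By edgeR's quasi-likelihood test, 0 of 49 genes passed an adjusted p below 0.01, as did 0% of all features, and DESeq2 also called 0, with 16 genes at an unadjusted p below 0.05. The DESeq2 share of all features at that level was not computed, so the 16 cannot be set against it.

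The separated genes were mainly those of the core and its assembly. They were 6 of the 7 alpha ring genes, 4 of the 7 beta ring genes, 3 of the 4 core chaperones, Psma8, Psmb9 and Psmb10. The cap contributed 2 of the 6 ATPases (Psmc1 and Psmc3), 1 of the 11 non-ATPase subunits (Psmd13) and 1 of its 3 chaperones (Psmd5), and Psmc3ip made up the 21. Psmb3 had 168, 142 and 144 CPM in Dnmt3C KO and 130, 87.4 and 112 CPM in dKO, with a log2 fold change of -0.47 ± 0.15 (SE). Psmg4, a chaperone that builds the alpha ring, had 15.2, 17.8 and 16.8 CPM in Dnmt3C KO and 12.7, 11.4 and 10.3 CPM in dKO, with a log2 fold change of -0.54 ± 0.15 (SE). In both genes the ranges did not meet, and the adjusted p was 0.675 by edgeR's quasi-likelihood test.

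Psmb10 had the smallest p in this comparison. It encodes the induced trypsin-like subunit and had 23.2, 22.0 and 25.1 CPM in Dnmt3C KO and 18.4, 13.4 and 15.1 CPM in dKO. The groups did not overlap, and the log2 fold change was -0.58 ± 0.15 (SE), with an unadjusted p of 0.00280 and an adjusted p of 0.675 by edgeR's quasi-likelihood test. Psma8 had a log2 fold change of -1.05 ± 0.33 (SE) in this comparison. The genes with values above 0 were Psme4 at 0.24 ± 0.12 (SE), Psmd3 at 0.05 and Psme3 at 0.01.

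The size of the shift depended on single libraries and moved with transcript length. Without dKO replicate 1, 21 genes were at an unadjusted p below 0.05, and without dKO replicate 2, 6 were, while the median stayed between -0.30 and -0.16 with any library left out. Leaving out Dnmt3C KO replicates 1, 2 or 3 gave 6, 6 and 5 genes, and no share of all features was computed for these fits. On the scale of mean log2 CPM, all genes with under 2000 bases of exon had a median difference of -0.18 between dKO and Dnmt3C KO, and those with 5000 or more had 0.11. The proteasome genes had -0.28 in the short class (16 genes), -0.22 in the class of 2000 to 5000 bases (26 genes, against 0.01 for all genes of that class) and -0.13 in the long class (7 genes). The part of transcript length in the shift was not tested. Germ cell markers had a median log2 fold change of -0.78, macrophage markers one of -0.48 and peritubular markers one of -0.34 in the same comparison, and their part was not tested either.

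**Figure D3:**
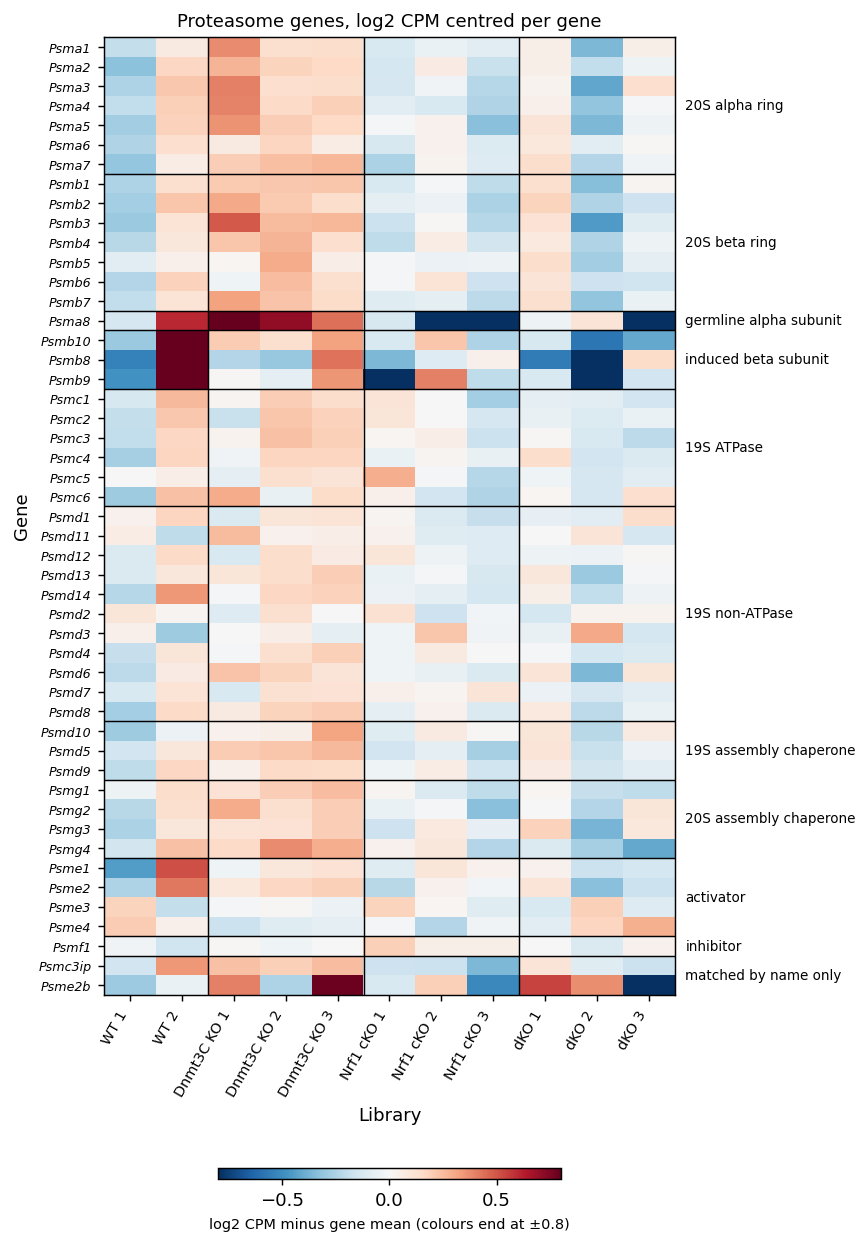
Log2 CPM of the 49 tested proteasome genes (y axis, grouped by role) in the 11 libraries (x axis, grouped by genotype), each minus the gene's mean over libraries. Red is above and blue below the mean; the 3 Dnmt3C KO libraries are mostly red, WT replicate 1 and dKO replicate 2 mostly blue.

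Many genes of the set had their highest and lowest values in the same libraries. WT replicate 1 held the lowest value of 14 of the 49 genes and dKO replicate 2 the lowest value of 17, against 9.90% and 11.02% of all genes. The 3 Dnmt3C KO libraries held the highest value of 13, 10 and 10 genes, against 10.1%, 5.87% and 5.31% of all genes. WT replicate 2 held the highest value of 11 genes, against 11.5% of all genes. For the 14 constitutive ring genes, the median log2 CPM relative to each gene's mean was -0.24 and 0.13 in WT. The Dnmt3C KO libraries stood at 0.29, 0.21 and 0.14, those of Nrf1 cKO at -0.12, -0.00 and -0.19, and those of dKO at 0.10, -0.30 and -0.04. The WT libraries lay on opposite sides of 0. The 17 cap genes spanned less, from -0.13 in dKO replicate 2 to 0.15 in WT replicate 2.

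**Figure D4:**
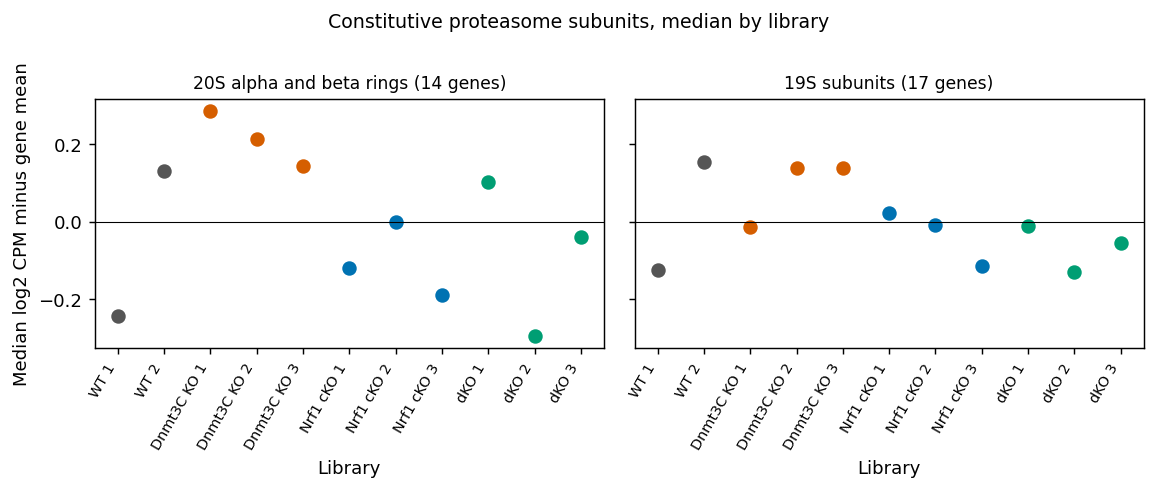
Median over genes of log2 CPM minus the gene's mean (y axis) in each library (x axis, coloured by genotype), for the 14 constitutive 20S ring genes (left) and the 17 constitutive 19S cap genes (right). The 20S medians run from -0.30 in dKO replicate 2 to 0.29 in Dnmt3C KO replicate 1, and the WT replicates lie at -0.24 and 0.13.

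Between Dnmt3C KO and WT most genes of the set lay above 0. Both this comparison and the last use the Dnmt3C KO libraries, so their values are not independent. The log2 fold change was above 0 for 41 of the 49 genes, with a median of 0.15 against 0.01 for all features. In 12 genes every Dnmt3C KO library was higher than both WT libraries, against 9.78% of all features. They were 2 alpha ring genes, 4 beta ring genes, 2 core chaperones, 2 cap chaperones and 2 non-ATPase cap subunits. Psme4 was separated in the lower direction, as were 11.5% of all features. By edgeR's quasi-likelihood test 0 of 49 genes passed an adjusted p below 0.01, as did 0% of all features. At an unadjusted p below 0.05, Psmb3 was higher and Psmb8 and Psmb9 lower, against 5.41% of all features, and DESeq2 called 0 and had 2 at that level.

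This comparison depended on which WT library was kept. The median log2 fold change of the set was 0.03 without WT replicate 1 and 0.40 without WT replicate 2, where each fit holds 1 WT library. In all genes the length classes differed here too, with medians of 0.14 for genes under 2000 bases, 0.05 for 2000 to 5000 bases and -0.07 for those of 5000 or more. The proteasome genes had 0.15, 0.16 and 0.08 in those classes. All 10 macrophage markers were above 0 in this comparison, with a median log2 fold change of 0.42 and 3 at an unadjusted p below 0.05, and 16 of 25 germ cell markers were, with a median of 0.26. Their part in the shift was not tested. Psmb3, with 97.4 and 129 CPM in WT against 168, 142 and 144 CPM in Dnmt3C KO, had a log2 fold change of 0.42 ± 0.17 (SE), which was 0.24 without WT replicate 1 and 0.65 without WT replicate 2. The adjusted p was 0.893 by edgeR's quasi-likelihood test.

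The comparison of Nrf1 cKO with WT gives Nrf1 deletion with Dnmt3C intact. The median log2 fold change was -0.05, and 39 of 49 genes were below 0. By edgeR's quasi-likelihood test 0 genes passed an adjusted p below 0.01, as did 0% of all features, and DESeq2 called 0 genes of the set. With DESeq2, the study itself reported protein-coding genes that differed between these genotypes, more of them lower than higher. The 0% of all features is therefore that of edgeR's test here, and does not mean that no gene differed. At an unadjusted p below 0.05, Psma8, Psmb8 and Psmb9 were lower, against 5.75% of all features (4.22% lower and 1.53% higher), and DESeq2 had 1 gene at that level. Psmc3ip, Psmd1 and Psme4 had every Nrf1 cKO library below both WT libraries, against 11.6% of all features, and Psmf1 had every library above, against 9.68%. Psma8 had a log2 fold change of -0.85 ± 0.38 (SE), which was -1.16 without WT replicate 1 and -0.44 without WT replicate 2. The median of the set was -0.19 without WT replicate 1 and 0.13 without WT replicate 2. In this comparison 24 of 25 germ cell markers were below 0, with a median log2 fold change of -1.17, and 13 of 14 Sertoli (median 0.48), 6 of 6 endothelial (0.50) and 10 of 10 macrophage markers (0.25) were above. Their part was not tested.

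Whether the Nrf1 difference depended on the Dnmt3C genotype was tested by the interaction term. By edgeR's quasi-likelihood test 0 of 49 genes passed, as did 0% of all features, and 1 gene was at an unadjusted p below 0.05, against 5.55% of all features. DESeq2 called 0 and had 1 at that level. The edgeR count moved when a library was left out, and without a WT library that genotype holds only 1. The gene in the fit of all libraries was Psme4, which encodes the activator PA200 that acts on acetylated histones in spermatogenesis. Psme4 had 82.6 and 74.0 CPM in WT, 63.8, 67.3 and 68.0 CPM in Dnmt3C KO, 71.2, 61.0 and 70.5 CPM in Nrf1 cKO, and 67.7, 80.9 and 87.6 CPM in dKO. Every library of both single mutants lay below both WT libraries, and dKO overlapped all 3 other genotypes. The interaction was 0.46 ± 0.18 (SE) in log2, with an adjusted p of 0.895 by edgeR's quasi-likelihood test. With any library left out it was 0.36 to 0.54. The median interaction of the set was -0.16, and it was -0.02 without WT replicate 1 and -0.39 without WT replicate 2. All 10 macrophage (median -0.70), 7 Leydig (-0.49), 6 endothelial (-0.62) and 6 peritubular markers (-0.41) had an interaction below 0. Of the Sertoli markers 11 of 14 were below 0 (-0.16), and 21 of 25 germ cell markers were above (0.43). Their part was not tested.

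With Nrf1 deleted in both groups, the genes of the set lay on either side of 0. In dKO against Nrf1 cKO, 24 genes were below 0 and 25 above in log2 fold change, and the median was 0.00. By edgeR's quasi-likelihood test 0 genes passed an adjusted p below 0.01 and 0 were at an unadjusted p below 0.05, against 0% and 2.81% of all features (1.94% higher and 0.868% lower), and DESeq2 gave 0 and 0. The 95% interval lay inside ±0.5 for 41 of the 49 genes, against 33.3% of all features. Psmd7, a cap subunit that pairs with the deubiquitinase Psmd14, and Psmf1 had every dKO library below every Nrf1 cKO library, against 3.29% of all features, and 0 genes were separated in the higher direction, against 4.14%. Over both Nrf1 backgrounds, Dnmt3C loss had a median log2 fold change of 0.06, with 0 genes at an unadjusted p below 0.05 by edgeR's quasi-likelihood test, against 2.9% of all features, and DESeq2 had 1. With each library left out the count ran from 0 to 7, the 7 without dKO replicate 2, and the median from 0.02 to 0.10. Dnmt3C loss had 0 genes called at an adjusted p below 0.01, against 0.00443% of all features. In that fit 22 of 25 germ cell markers were above 0 (median 0.35). Of the endothelial markers 6 of 6 (-0.41) and of the Sertoli markers 12 of 14 (-0.12) were below, and their part was not tested. Against WT, dKO had a median of -0.05, with 0 genes at an adjusted p below 0.01 by edgeR's quasi-likelihood test (0% of all features), and Psmb8, Psmb9 and Psmb10 lower at an unadjusted p below 0.05 (1.74% of all features, 1.19% lower). The median of dKO against WT was -0.21 without WT replicate 1 and 0.12 without WT replicate 2. Psmc5 had every dKO library below both WT libraries, as did 6.76% of all features, and 0 genes had every library above, as did 6.39%. DESeq2 called 0 of the 49 genes there and had 2 at that level. The test for any difference among the 4 genotypes also called 0 (0% of all features). It had 7 genes at an unadjusted p below 0.05 (6.06% of all features), and DESeq2 called 0 and had 11 at that level.

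The induced subunits set WT replicate 2 apart from the other 10 libraries. Interferon induces Psmb8, Psmb9 and Psmb10, which replace Psmb5, Psmb6 and Psmb7 in the immunoproteasome that cuts peptides for MHC class I. Psmb8 had 3.16 and 23.1 CPM in WT, 3.91, 3.74 and 6.23 CPM in Dnmt3C KO, 3.58, 4.30 and 4.72 CPM in Nrf1 cKO, and 3.12, 2.56 and 5.10 CPM in dKO. Psmb9 had 2.13 and 16.2 CPM in WT, 3.02, 2.85 and 3.84 CPM in Dnmt3C KO, 1.43, 3.97 and 2.59 CPM in Nrf1 cKO, and 2.76, 1.39 and 2.69 CPM in dKO. WT replicate 2 was 6.06 times the median of the other libraries for Psmb8 and 5.94 times for Psmb9. Psmb10 was at 37.3 CPM there, 2.02 times the median of the others, against 16.4 CPM in WT replicate 1 and 13.4 to 25.1 CPM elsewhere.

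The inducible activator pair PA28 followed. Psme1 had 105 and 204 CPM in WT, 139, 152 and 155 CPM in Dnmt3C KO, 134, 153 and 146 CPM in Nrf1 cKO, and 146, 127 and 130 CPM in dKO. Psme2 had 130 CPM in WT replicate 2 and 76.6 to 111 CPM elsewhere. In both genes WT replicate 2 was the highest library and WT replicate 1 below every Dnmt3C KO library. The third PA28 subunit, Psme3, is not induced by interferon and had 86.5 CPM in WT replicate 2, the lowest of the 11 libraries. Psmb8, Psmb9, Psmb10, Psme1 and Psme2 were highest in WT replicate 2, as were 11.5% of all genes, whereas 0 of the 14 constitutive ring genes were. Psmc1, Psmd1, Psmd12, Psmd14, the cap chaperone Psmd9 and Psmc3ip were highest there too.

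Genes that act with the immunoproteasome in antigen presentation were high in the same library. Of 14 MHC class I and interferon genes, 11 were highest there. B2m, the light chain of MHC class I, had 539 CPM in WT replicate 2 and 89.1 to 156 CPM elsewhere. H2-K1 had 178 CPM against 21.6 to 51.5 CPM, and the peptide transporter Tap1 had 42.5 CPM against 11.5 to 18.5 CPM. Nlrc5, the transactivator of MHC class I genes, had 6.31 CPM against 0.925 to 2.45 CPM. Of 10 macrophage markers, 0 were highest in this library, and of 8 lymphocyte markers 3 were, namely Ptprc at 7.55 CPM, Cd3d at 0.962 CPM and Cd8a. The part of immune cells in these values was not tested.

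The letters read by interferon factors, searched after these values had been seen, are shown for Psmb8 and Psme1, which encode an induced subunit and an induced activator. TTCNNNGAA, the gamma-activated site, was in 3 of the 45 proteasome windows (6.67%) and in 8.30% of all windows. The genes were Psmb8, Psmd2 and Psmg1. GAAA, any 2 bases and GAAA, the core of the interferon-stimulated response element, was in 5 of the 45 windows (11.1%) and in 3.44% of all windows. They were those of Psmb3, Psmd4, Psmd9, Psme1 and Psmg4, of which Psme1 alone is one of the interferon-induced genes described here. For Psmb9, Psmb10 and Psme2 neither was found, and whether they are among the 8 genes without a window is not given here. Both were searched on both strands, and Psme1 holds the second as its reverse complement.
Psmb8, chr17:34198088-34198116, plus strand: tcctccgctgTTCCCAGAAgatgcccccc
Psme1, chr14:55578493-55578522, plus strand: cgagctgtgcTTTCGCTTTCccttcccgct

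The comparisons of Psmb8 and Psmb9 with WT changed sign without WT replicate 2. In Nrf1 cKO against WT, the log2 fold change of Psmb8 was -1.64 ± 0.59 (SE) and that of Psmb9 -1.77 ± 0.67 (SE), and without WT replicate 2 they were 0.40 and 0.32. In Dnmt3C KO against WT they were -1.51 and -1.50 and became 0.56 and 0.61. In dKO against WT they were -1.87 and -2.003 and became 0.19 and 0.10. Psmb10 in dKO against WT was at -0.78 and without WT replicate 2 at -0.06. With Nrf1 deletion over both backgrounds, Psmb8 was at -0.95, Psmb9 at -1.09 and Psmb10 at -0.52. Without WT replicate 2 they were at -0.12, -0.25 and -0.32.

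**Figure D5:**
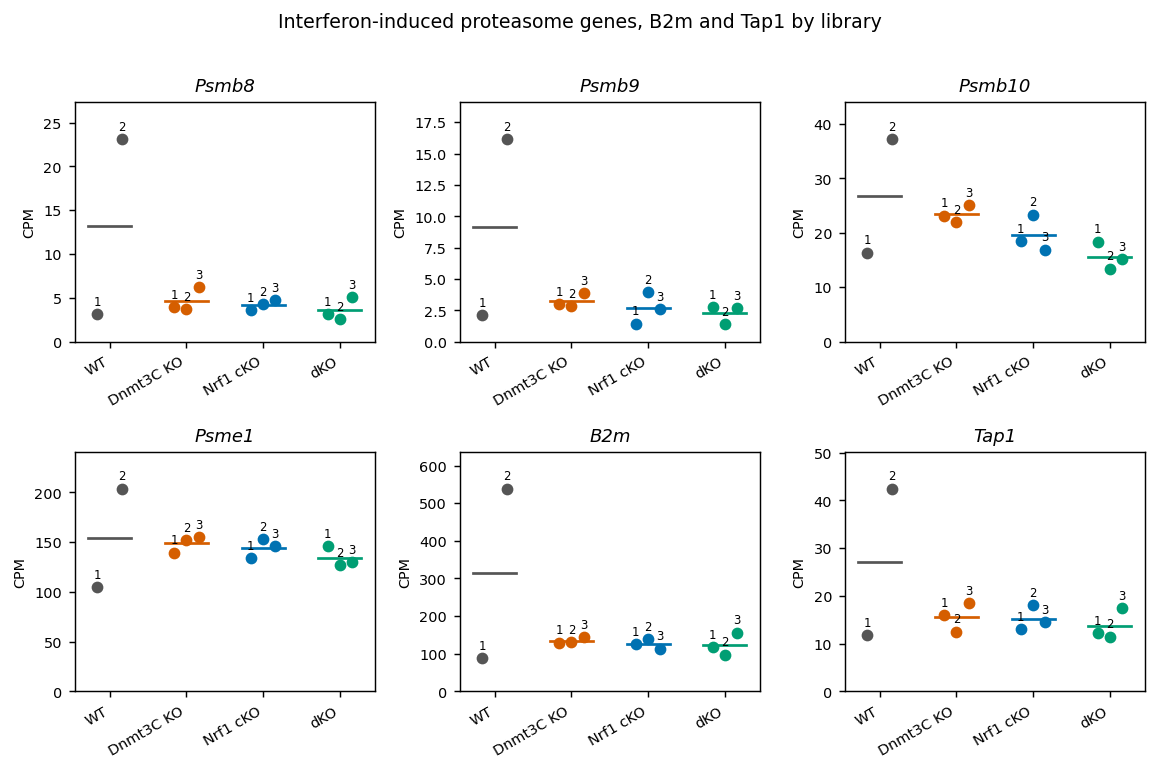
CPM (y axis, from 0) in each library, by genotype (x axis), of the induced subunits Psmb8, Psmb9 and Psmb10, the activator Psme1, and B2m and Tap1. Points are libraries, labelled with the replicate number, and lines are genotype means; WT replicate 2 is the highest point in all 6 panels, for example 23.1 CPM for Psmb8.

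The genes that activate the other NRF1 were on the opposite side of 0 from the proteasome genes. Nfe2l1 is made in the endoplasmic reticulum, drawn out by Vcp, Sel1l and Syvn1, stripped of sugars by Ngly1 and cut by the protease Ddi2 before it pairs with a small Maf protein. All 9 genes of this list had log2 fold changes above 0 with Nrf1 deletion, with a median of 0.21 and 3 at an unadjusted p below 0.05, against 3.55% of all features in that direction. These were Nfe2l1, Sel1l and Maff. WT replicate 2 held the lowest value of the 11 libraries for Nfe2l1 and Sel1l. Of the 14 Sertoli cell markers, 12 were also above 0, with a median of 0.35 and 6 at an unadjusted p below 0.05, and their part in these values was not tested. Nfe2l1 had 239 and 167 CPM in WT, 214, 220 and 194 CPM in Dnmt3C KO, 258, 245 and 277 CPM in Nrf1 cKO, and 209, 267 and 229 CPM in dKO. Every Nrf1 cKO library was above both WT libraries, while dKO overlapped Dnmt3C KO. Its log2 fold change was 0.25 ± 0.11 (SE), with an adjusted p of 0.608 by edgeR's quasi-likelihood test, and without WT replicate 2 it was 0.15. Ddi2 was at 0.11 and Ngly1 at 0.01.

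Other genes of the pathway passed no test in this comparison either. Of the 4 related factors, Keap1, which marks Nfe2l2 for destruction, was at 0.25 ± 0.10 (SE) and had an unadjusted p below 0.05, Nfe2l2 was at 0.04 ± 0.10 (SE) and Nfe2l3 at -0.43 ± 0.33 (SE) in log2. Of 15 further proteasome parts and partners, 10 were above and 5 below 0, with 2 above at an unadjusted p below 0.05, against 3.55% of all features. The 2 were the ubiquitin receptor Adrm1 at 0.26 and the shuttle Ubqln4 at 0.30. Adrm1, Ubqln4 and Keap1 all had their lowest value of the 11 libraries in WT replicate 2. Pomp, the maturation factor of the core, was at -0.19 ± 0.10 (SE) and Sem1, the smallest cap subunit, at -0.25 ± 0.12 (SE). Of 6 ubiquitin and ubiquitin-activating genes, 4 were below and 2 above 0, with 0 at an unadjusted p below 0.05.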

How the data were processed

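The authors aligned paired-end reads of stranded polyadenylated RNA libraries with STAR 2.7.3a to GRCm38 (GENCODE M25). They counted reads per gene and transposon subfamily with TEtranscripts 2.2.3 and compared genotypes with DESeq2 1.44.0 at an adjusted p below 0.01. Per the methods, the authors left out libraries of low RNA integrity. The paper gives 3 biological replicates for these comparisons, whereas 2 WT libraries were available here. The deposited tables hold whole-number counts for pairs of genotypes beside fold changes and p-values, and the latter columns were not used. The transposon copy table holds no genes and was not used here. Counts of the 11 libraries were joined by identifier (33188 genes and 1088 transposon subfamilies), with 0 differences between tables. Each replicate pair differed by more than sampling noise. Library totals of 26063590 to 39365841 counts leave few reads for Psma8 (53 to 284), Psmb9 (45 to 538) and Psme2b (26 to 92).

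Counts were tested with the quasi-likelihood test of edgeR 4.0.16 in R 4.3.3 after filterByExpr and trimmed mean of M-values (TMM) scaling, with Benjamini-Hochberg adjustment over all features. Pairwise fits used the libraries compared, and the others used all 11. The code was tested on simulated data. Levels are TMM-scaled CPM. Exon lengths and gene models came from GENCODE M21 on the same build, and promoters from RefSeq. The 5 pseudogene entries left out held at most 0.0397% as many counts as the set. The alternatives were other scalings, no filter, DESeq2 1.42.0, other thresholds, a replicate block, 1 fit over all libraries and leaving out each library. Named genes are up to 8 with the smallest p in a comparison, tissue-specific or induced members, the highest and lowest of each role, and Nfe2l1 and its partners; Psmd3, Psmd13, Psmd1, Psmd7, Psmc1, Psmc3, the other separated genes and the antigen presentation genes were named after their values were seen. The genes and lists were chosen with earlier results of these data known. Paaf1 was not analysed here.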

Additional observations from a re-analysis of the deposited data

Results flagged for a closer look

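Each gene was checked for a library far from the others in the 5 libraries with Nrf1 intact and in the 6 with Nrf1 deleted. Of 98 such groups 6 had a library whose gap to its neighbour was large against the range of the group. Chance alone picks about 1 in 20 groups under this rule, and the genes share the same libraries, so the groups are not independent. All 6 lay among the intact libraries, in the WT replicates.

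In WT replicate 2, Psmb8 was at 23.1 CPM with the next library at 6.23 CPM, and Psmb9 at 16.2 CPM with the next at 3.84 CPM. The inhibitor Psmf1 was at 39.6 CPM in that library with the next at 43.2 CPM. In WT replicate 1, Psma2 was at 120 CPM with the next library at 169 CPM, and Psmb1 at 183 CPM with the next at 237 CPM. The core chaperone Psmg3 was at 10.8 CPM there with the next at 13.7 CPM. No gene of the set had an Nrf1 difference that passed the interaction test.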

How the results depend on the processing

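At an adjusted p below 0.01, edgeR's quasi-likelihood test called 0 of 49 genes in every comparison under other scalings, in 1 fit over all libraries and, as the lowest and highest count, from 0 to 0 with each library left out. DESeq2 also called 0. Without the filter on low counts, Nrf1 cKO against WT had 2 calls and Dnmt3C KO against WT had 2, which were Psmb8 and Psmb9 in both, and the cause was not tested. At an unadjusted p below 0.05 the counts were 10 for Nrf1 deletion, 3 for Nrf1 cKO against WT, 13 for dKO against Dnmt3C KO, 3 for Dnmt3C KO against WT, 3 for dKO against WT, 1 for the interaction and 7 for any difference, and 0 for the others. With each library left out the count ran from 2 to 26 for Nrf1 deletion and from 5 to 21 for dKO against Dnmt3C KO. It ran from 0 to 7 for Dnmt3C loss and from 0 to 0 for dKO against Nrf1 cKO. No share of all features was computed for these fits. Counts for the pairs with WT, the interaction and any difference moved too. Without a WT library those fits hold 1 WT library and the other libraries alone give the spread, so their ranges are not printed.

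With each library left out, Nrf1 cKO against WT ran from -2.45 to 0.40 for Psmb8 and from -2.58 to 0.32 for Psmb9 in log2. Dnmt3C KO against WT ran from -2.32 to 0.56 and from -2.31 to 0.61, and dKO against WT from -2.69 to 0.19 and from -2.83 to 0.10. The values above 0 are those without WT replicate 2. The set median also turned above 0 without WT replicate 2 in Nrf1 cKO against WT (0.13) and dKO against WT (0.12), and that of dKO against Nrf1 cKO ran from -0.07 to 0.09.

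The replicate numbers of the sample titles, used here, differ from those of the count columns for the library titled 3 of Dnmt3C KO and of dKO. They are shared over genotypes but do not pair the libraries: deviations of 15 same-numbered pairs correlated from -0.301 to 0.276, and 4 of 11 libraries correlated best with their own number. With the replicate number as a block, 0 genes were called in every comparison. Low counts limit Psma8, Psmb8, Psmb9 and Psme2b most.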
